A study of Homo sapiens with 50 samples.

Results

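The comparison described here is between cultures of H1 cells, an established human embryonic stem cell line of wild-type genotype, that received the WNT inhibitor IWP2 and cultures that received IWP2 together with NaHCO3 (sodium bicarbonate, a base), both sequenced on day 5 of cardiac differentiation. Each group has 2 libraries of bulk RNA. Of the 57905 genes in the deposited table of days 3 and 5, 14098 reached at least 1 FPKM (fragments per kilobase of exon, scaled to the library total) in 2 or more of these 4 libraries, and these genes are the members described. They held 99.2% of the counts of the 4 libraries. The series holds 50 libraries in 25 groups: undifferentiated cells (day 0) and 6 treatments on each of days 3, 5, 7 and 11. Without IWP2 there are a differentiation control, a group given HCl and a group given NaHCO3; with IWP2 there are the pair compared here and a group that also got 2-DG, a glucose analogue that blocks glycolysis. All cells were H1. The labels give no dose, time of addition or pH reading, and no group with another sodium salt, so an effect of pH cannot be told apart from other effects of NaHCO3. The labels do not say whether the libraries of a group come from separate cultures, so p-values measure only the spread between such libraries. That spread was estimated with all 24 libraries of days 3 and 5, in 12 groups.

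In this kind of culture, pluripotent cells first form mesendoderm, the common precursor of mesoderm and endoderm, and then mesoderm that can become heart muscle. Heart muscle is favoured when WNT signalling is high at first and is blocked afterwards; IWP2 does this by inhibiting Porcupine, the enzyme that adds the lipid WNT proteins need for secretion. Cardiac mesoderm then turns on transcription factors such as NKX2-5, ISL1 and MEF2C, followed by the proteins of the sarcomere, the contractile unit of muscle. Definitive endoderm, which can arise in the same dish, turns on FOXA2 and HNF4A and later the genes of secreted plasma proteins such as apolipoproteins, fibrinogen and alpha-fetoprotein. Bicarbonate is the main buffer of culture medium, and cells move it with transporters of the SLC4 family and make it with carbonic anhydrases.

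The promoters below belong to genes called in opposite directions, 3 liver-type secreted proteins that were higher with NaHCO3 and 1 sarcomere gene that was lower. They were taken from the called genes whose promoters hold the letters marked, not by the size of the change. Each is the 250 bases before the RefSeq start, 5′ to 3′ on the gene's strand, on build GRCh38.p14, from the RefSeq table. Capitals in the first 3 mark the letters GTTAAT or their reverse complement ATTAAC, letters found in the promoters of many liver genes. In AFP (chr4:73435971-73436220, plus strand) the letters begin 132 bases before the start, in FGA (chr4:154590743-154590992, minus strand) 52 and in FGB (chr4:154562730-154562979, plus strand) 51. Capitals in ACTA1 (chr1:229434095-229434344, minus strand) mark a CArG box, the sequence bound by serum response factor, 97 bases before the start.
AFP: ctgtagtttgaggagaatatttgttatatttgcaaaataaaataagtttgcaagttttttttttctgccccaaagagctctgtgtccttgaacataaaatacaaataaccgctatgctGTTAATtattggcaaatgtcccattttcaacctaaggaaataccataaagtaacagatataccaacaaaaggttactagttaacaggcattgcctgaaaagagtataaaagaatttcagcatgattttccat
FGA: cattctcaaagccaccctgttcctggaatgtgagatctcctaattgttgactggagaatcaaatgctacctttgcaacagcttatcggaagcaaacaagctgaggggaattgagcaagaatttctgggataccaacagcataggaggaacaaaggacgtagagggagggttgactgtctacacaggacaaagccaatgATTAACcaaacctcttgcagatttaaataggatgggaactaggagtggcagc
FGB: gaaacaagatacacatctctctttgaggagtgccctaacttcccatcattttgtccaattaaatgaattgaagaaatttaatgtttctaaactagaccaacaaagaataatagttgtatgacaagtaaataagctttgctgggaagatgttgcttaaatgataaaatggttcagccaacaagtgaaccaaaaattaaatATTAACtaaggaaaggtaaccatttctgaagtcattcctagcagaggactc
ACTA1: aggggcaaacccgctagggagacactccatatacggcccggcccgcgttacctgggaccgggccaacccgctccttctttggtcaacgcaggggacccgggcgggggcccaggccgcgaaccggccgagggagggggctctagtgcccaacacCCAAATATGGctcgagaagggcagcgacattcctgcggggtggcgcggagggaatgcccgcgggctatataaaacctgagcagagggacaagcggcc
Of the 12 liver-type genes that rose, 9 were matched to the promoter table by symbol, and 4 of them (AFP, FGA, FGB and SERPINA1) held GTTAAT on either strand in a window. These letters were in 6.23% of all 35116 windows of 250 bases in the table, and 7.5% of the 27305 genes with a window had at least 1 such window. Of the 7 sarcomere genes that fell, 6 were matched and 2 (ACTA1 and LDB3) held a CArG box, against 1.16% of all windows and 1.44% of genes. Called or not, 5 of the 15 liver-type genes with a window (33.3%) held the first letters, against 44.4% of the called ones. A CArG box was held by 5 of the 17 sarcomere genes with a window (29.4%), against 33.3% of the called ones. The larger sets contain the called genes, so the shares cannot tell whether the letters go with the change. The matches are descriptions of letters; no binding was measured.

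With NaHCO3 added, most liver-type genes and some endoderm and stromal matrix genes rose, while some genes of heart muscle and some cardiac transcription factors fell and a few of those factors rose. The liver-type secreted proteins moved furthest as a list, with 12 of 13 tested members higher and a median log2 fold change of 2.53. Sarcomere genes had 7 of 18 tested members lower and none higher, with a median of -0.93. Genes were called at an adjusted p under 0.05 (edgeR's quasi-likelihood test with Benjamini-Hochberg adjustment over the 14098 genes) and a log2 change no smaller than 1 in either direction. By this rule 471 genes were higher (3.34%) and 328 lower (2.33%), 799 in all (5.67%). The median log2 fold change over all 14098 genes was -0.01. By adjusted p alone, with no minimum fold, 1084 genes were higher and 1019 lower (14.9%). On log2(FPKM + 1) with limma the counts were 309 and 167. In 62.1% of all genes the 2 libraries of one group lay above both of the other, and a gene whose groups do not overlap is read against that share.

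**Figure D1:**
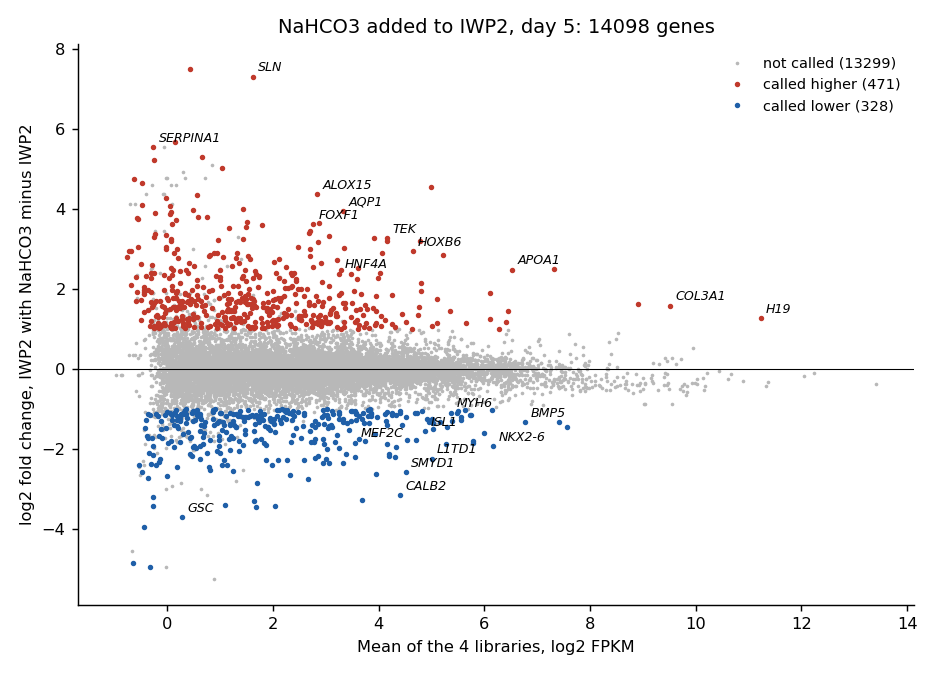
Each point is 1 of the 14098 genes; the horizontal axis is the log2 of its mean FPKM over the 4 libraries and the vertical axis its log2 fold change from edgeR, IWP2 with NaHCO3 minus IWP2, on day 5. The 471 genes called higher are red and the 328 called lower are blue; HNF4A, APOA1 and TEK lie in the upper cloud and SMYD1, MEF2C and CALB2 in the lower.

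Gene counts summed to between 18492995 and 21686555 in the 4 libraries, within the range of 14794134 to 22796553 of the 24 libraries fitted together. The mitochondrial share of counts was 4.20% and 4.24% with IWP2 and 3.55% and 3.52% with NaHCO3 added. Counts of all genes with a numbered RPL or RPS symbol (cytosolic ribosomal proteins) took 6.41% and 5.84% against 4.86% and 4.67%. Both shares move with the comparison, and their part in the results was not tested. All 8 markers of early heart muscle (HAND1, GATA4, NKX2-5, TBX5, TNNT2, MYL7, MYH6 and ACTN2) stood above 1 FPKM in each of the 4 libraries. Markers of neural cells (SOX1, PAX6 and SOX3) were at 0.28 FPKM or lower in every library. These are bulk samples, so fewer cells of a type and less RNA per cell cannot be told apart for any gene below. Because a gene enters with 1 FPKM in 2 libraries, 390 genes passed only through both NaHCO3 libraries and 249 only through both IWP2 libraries. A gene that entered in this way could lean only toward the group that admitted it, and the counts by list below include such genes. Near the 1 FPKM limit, 316 genes had a second-highest value between 1 and 1.1 FPKM and 351 genes just missed it with 0.9 to under 1.

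Of the 47 gene lists compared, 15 had no called member. These include glycolysis, the lysosome, the unfolded protein response, p53 targets, heat shock, DNA replication, nuclear oxidative phosphorylation and cytosolic ribosomal proteins, with 254 tested members in all and list medians from -0.41 to 0.29. DESeq2, limma on log2(FPKM + 1) and limma on log2(FPKM + 0.1) also called 0 of the 254. The unadjusted p of edgeR was under 0.05 for 73 (28.7%), against 25.9% of all genes. By list this share ran from 0% (nuclear oxidative phosphorylation) to 71.4% (G1 cyclins and CDK inhibitors). Below the fold limit some lists leaned to 1 side. All 24 cytosolic ribosomal proteins lay between -0.64 and -0.21 on the log2 scale, and all 13 mitochondrially encoded genes between -0.52 and -0.06. All 20 G2/M (cell division) genes lay between 0.11 and 0.62. By edgeR's adjusted p alone 38 of the 254 passed, against 14.9% of all genes. The lists were chosen with results of these data known, so counts are given as descriptions beside the 5.67% of all genes that were called.

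**Figure D2:**
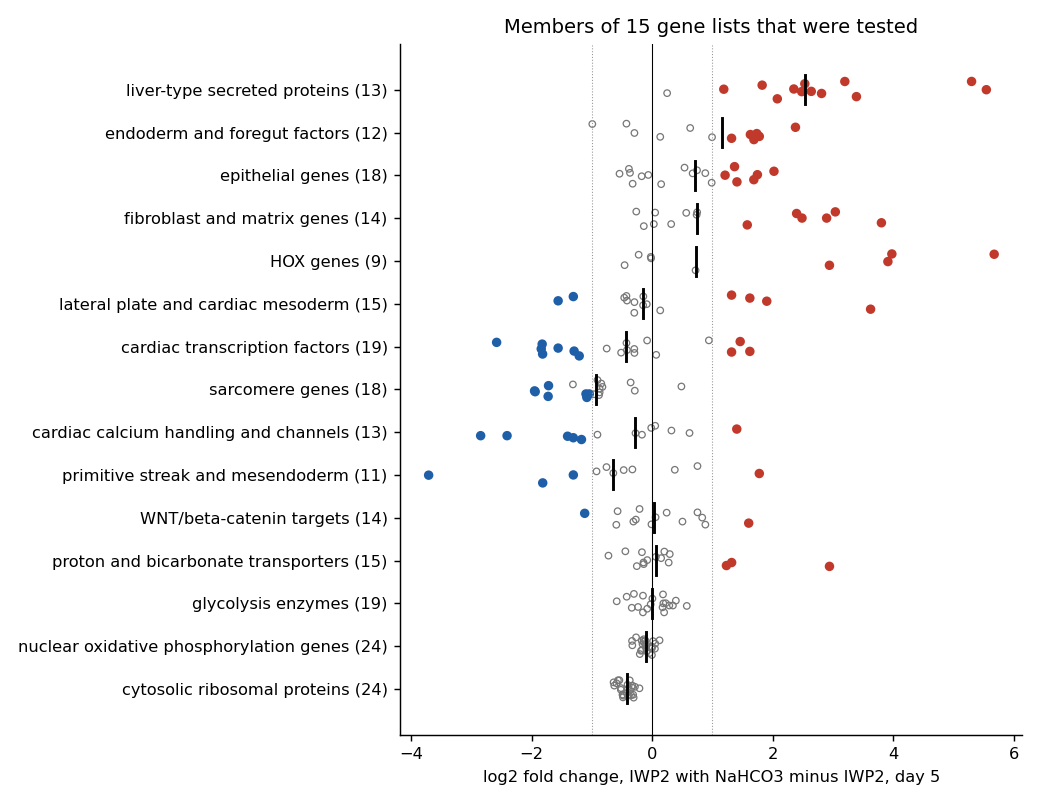
Rows are 15 of the gene lists with the number of tested members in parentheses; each point is 1 member at its log2 fold change (IWP2 with NaHCO3 minus IWP2, day 5), filled red or blue where called and open where not, and black bars are list medians. Liver-type genes lie to the right with a median of 2.53, sarcomere genes to the left with a median of -0.93, and the 3 lowest lists have no filled point.

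Among the transcription factors of endoderm and foregut, 6 of 12 tested members rose, none fell, and the median was 1.16. HNF4A (chr20:42984340-43061485, GRCh37), a nuclear receptor that drives liver genes, was at 2.79 and 3.23 FPKM with IWP2 and at 16.1 and 16.2 with NaHCO3 added. Its log2 fold change was 2.38 (SE 0.13, adjusted p = 2.0e-09), and the groups lay far apart. FOXA2, a pioneer factor of endoderm, was at 3.57 and 3.82 against 14.6 and 11.6 FPKM (log2 fold change 1.78, SE 0.18, adjusted p = 1.6e-06). FOXA1, HHEX and TBX3 rose by 1.69, 1.63 and 1.32 on the log2 scale. SOX17, an early endoderm factor, was not called, at 3.50 and 3.28 against 4.0 and 3.67 FPKM (log2 fold change 0.14, adjusted p = 0.70). GATA4 and GATA6, shared by heart and endoderm, had log2 fold changes of -0.43 and -0.29 and were not called.

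Liver-type secreted proteins rose from low or middle levels. APOA1, the main protein of high-density lipoprotein, was at 29.3 and 25.3 FPKM with IWP2 and at 159 and 155 with NaHCO3 (log2 fold change 2.48, SE 0.18, adjusted p = 3.3e-08). TTR, which carries thyroid hormone, was at 3.25 and 3.79 against 21.8 and 20.2 FPKM, and APOB, the structural protein of low-density lipoprotein, at 1.53 and 2.52 against 12.7 and 13.3. Their log2 fold changes were 2.53 and 2.64, and in both the groups did not overlap. APOA2 was at 5.28 and 5.26 against 45.9 and 53.9 FPKM, a log2 fold change of 3.20. The fibrinogen chains FGA and FGB, clotting proteins, rose by 2.81 and 3.39 on the log2 scale. FGB went from 1.24 and 0.94 to 12.1 and 11.6 FPKM.

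AFP, the fetal plasma protein alpha-fetoprotein, had 7 and 2 counts in the IWP2 libraries and 176 and 233 in the NaHCO3 libraries, which is 0.11 and 0.03 against 2.49 and 3.66 FPKM. SERPINA1, a protease inhibitor, had 4 and 2 counts against 190 and 142. Their fitted log2 fold changes of 5.30 (SE 0.66) and 5.54 (SE 0.54) therefore rest on few counts in the IWP2 group. AFP and SERPINA1 entered the test only through the NaHCO3 libraries, so both could only lie higher there. The remaining risers were AMBP, RBP4, APOM and VTN, with log2 fold changes from 1.19 (VTN) to 2.35 (AMBP). APOE, also made outside the liver, was the 1 tested member that was not called, at 839 and 673 against 903 and 951 FPKM (log2 fold change 0.25, adjusted p = 0.54). It was the most abundant of the list by FPKM.

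**Figure D3:**
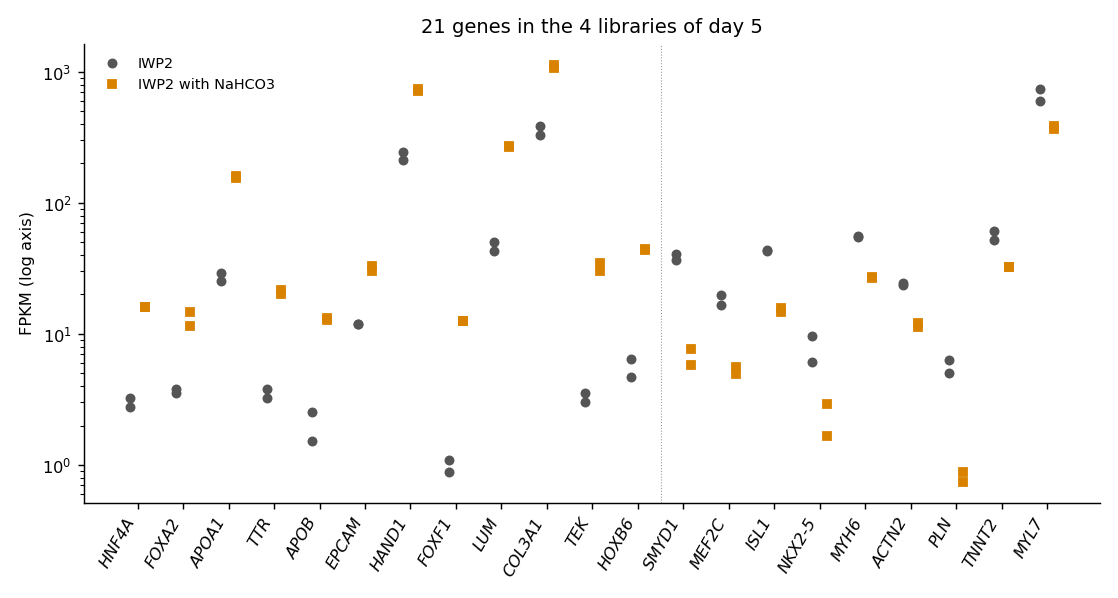
FPKM on a log axis of 21 genes in each of the 4 libraries of day 5, circles for IWP2 and squares for IWP2 with NaHCO3. The 12 genes left of the dotted line are higher in both NaHCO3 libraries than in both IWP2 libraries, and the 9 heart genes right of it are lower, by the smallest step for TNNT2 and MYL7, which were not called.

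Of 18 tested epithelial genes 6 rose and none fell, with a median of 0.71. EPCAM, an epithelial adhesion protein, was at 11.9 and 11.9 FPKM with IWP2 and 33.1 and 30.1 with NaHCO3 (log2 fold change 1.37, SE 0.18, adjusted p = 1.7e-05). The tight junction claudins CLDN3, CLDN4 and CLDN7 rose by 2.02, 1.41 and 1.21 on the log2 scale, and ESRP1, a splicing factor of epithelia, by 1.75. CDH1, the epithelial cadherin, was at 4.99 and 5.84 against 11.5 and 9.08 FPKM and missed the fold limit with a log2 fold change of 0.88. The keratins KRT8 and KRT18 of simple epithelia, at 1033 and 920 and at 609 and 539 FPKM with IWP2, had log2 fold changes of -0.37 and -0.54 and were not called. CLDN6, another claudin, had a log2 fold change of -0.17. All 6 called epithelial genes were under 12 FPKM with IWP2.

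Of 14 tested matrix genes of fibroblasts and stroma, 6 rose and none fell, with a median of 0.74. LUM, the collagen-binding proteoglycan lumican, was at 50.8 and 42.9 FPKM with IWP2 and at 273 and 268 with NaHCO3 (log2 fold change 2.49, SE 0.28, adjusted p = 3.9e-06). COL6A3, a chain of type VI collagen, was at 3.73 and 4.01 against 29.0 and 30.4 FPKM, a log2 fold change of 2.89. COL3A1, a fibrillar collagen, went from 385 and 329 to 1068 and 1133 FPKM (log2 fold change 1.58, SE 0.35, adjusted p = 0.0042). It lost its call with DESeq2 (adjusted p = 0.094) and without replicate 2 of IWP2 (adjusted p = 0.062). DCN and POSTN, markers of fibroblasts, were at 0.26 FPKM or lower with IWP2 and at 3.09 and 3.20 and at 1.54 and 1.96 with NaHCO3. Both entered the test only through the NaHCO3 libraries. COL1A1, a major fibroblast collagen, was not called, at 224 and 230 against 183 and 208 FPKM (log2 fold change -0.26, adjusted p = 0.34).

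Several mesoderm factors rose beside them. HAND1, a factor of lateral plate and extraembryonic mesoderm and of the first heart field, was at 244 and 214 FPKM with IWP2 and at 712 and 741 with NaHCO3 (log2 fold change 1.62, SE 0.15, adjusted p = 3.4e-07). FOXF1, a factor of the mesoderm around the gut, was at 0.88 and 1.09 against 12.6 and 12.6 FPKM, and rose by 3.62 on the log2 scale (SE 0.20, adjusted p = 2.0e-09). MSX1, a target of BMP, rose from 32.9 and 23.6 to 119 and 98.9 FPKM. In the lateral plate list, 4 of 15 tested members rose (FOXF1, MSX1, HAND1 and TBX3) and 2 fell (ISL1 and MESP1). The mesenchymal factor PRRX1 and the mesenchymal cadherin CDH11 rose by 1.36 and 1.07 on the log2 scale, 2 of 10 tested in that list.

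WT1, a factor of epicardium and mesothelium, was at 1.37 and 0.76 FPKM with IWP2 and 6.27 and 7.77 with NaHCO3 (log2 fold change 2.67, SE 0.37, adjusted p = 7.5e-05). UPK3B, a mesothelial membrane protein, rose by 2.52, from 0.23 and 0.37 to 1.57 and 2.05 FPKM. It entered the test only through the NaHCO3 libraries. TEK (chr9:27109139-27230173, GRCh37), the angiopoietin receptor of endothelium, was at 3.55 and 3.02 against 30.4 and 34.7 FPKM, and rose by 3.26 on the log2 scale (SE 0.17, adjusted p = 1.6e-09). FLT1, a VEGF receptor, was at 3.71 and 4.30 against 7.06 and 7.27 FPKM. The other 3 endothelial markers were low in all 4 libraries: CDH5 lay between 0.02 and 0.07 FPKM, ETV2 between 0.20 and 0.69 and ESAM between 0 and 0.36. Summed over the 5 endothelial markers the level was 7.72 and 7.55 against 38.6 and 42.8 FPKM, with TEK the larger part in the NaHCO3 libraries and FLT1 in the IWP2 libraries. Of the blood markers, HBE1 alone passed 1 FPKM, at 1.77 and 2.17 against 6.86 and 4.56.

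HOX genes, which mark position along the body axis, rose in 4 of 9 tested cases, with none lower and a median of 0.72. Of the 4, HOXB6 alone reached 1 FPKM with IWP2. HOXB7, HOXB8 and HOXA13 entered the test only through the NaHCO3 libraries and so could only lie higher there. HOXB6 (chr17:46671639-46682354, GRCh37) was at 6.49 and 4.71 FPKM with IWP2 and at 44.0 and 44.9 with NaHCO3 (log2 fold change 2.94, SE 0.19, adjusted p = 1.6e-08). Its neighbours HOXB7 and HOXB8 were at 0.14 and 0.18 and at 0.05 and 0.03 FPKM with IWP2, and at 2.67 and 2.59 and at 2.31 and 2.01 with NaHCO3. HOXB8 had 2 and 1 counts in the IWP2 libraries against 106 and 83, a ratio of 55.7 with an exact interval of 18.8 to 272 that covers counting error only. Toward the other end of the cluster stood HOXB4 at 11.2 and 9.48 against 10.2 and 10.8 FPKM, HOXB3 at 11.4 and 11.4 against 11.5 and 11.8, and HOXB2 at 38.1 and 32.5 against 25.8 and 27.3. None of these 3 was called. HOXB5, next to HOXB6, was at 11.8 and 11.1 against 19.1 and 19.7 FPKM (log2 fold change 0.72, adjusted p = 0.015) and missed the fold limit, and HOXB13, beyond HOXB8, was not called at 2.02 and 1.56 against 1.89 and 1.74 FPKM. The antisense gene HOXB-AS1 fell by 1.40 on the log2 scale, from 10.6 and 8.61 to 3.49 and 4.01 FPKM (SE 0.30, adjusted p = 0.0032). HOXA13, the last gene of the HOXA cluster, rose from 0.12 and 0.13 to 1.86 and 2.09 FPKM. Genes of the HOXB cluster overlap in the annotation on both strands, and strand-specific counting is not stated, so their split is uncertain.

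Among the cardiac transcription factors 7 of 19 tested members fell and 3 rose, with a median of -0.43. SMYD1 (chr2:88367299-88412906, GRCh37), a muscle methyltransferase needed for heart chamber growth, was at 36.7 and 41.0 FPKM with IWP2 and at 7.61 and 5.77 with NaHCO3 (log2 fold change -2.58, SE 0.21, adjusted p = 2.0e-07). MEF2C, which switches on muscle genes, was at 16.6 and 19.9 against 5.57 and 4.93 FPKM, and MYOCD, the coactivator of serum response factor, at 9.18 and 11.9 against 3.25 and 2.91. Their log2 fold changes were -1.84 and -1.82. NKX2-5, the homeobox factor that marks cardiac progenitors, was at 9.61 and 6.15 against 2.91 and 1.66 FPKM (log2 fold change -1.82, SE 0.33, adjusted p = 0.00066). ISL1, a factor of the second heart field, was at 43.2 and 43.7 against 15.7 and 14.7 FPKM, a fall of 1.56 on the log2 scale with an SE of 0.11. IRX3 and HEY1 fell by 1.21 and 1.29, although HEY1 was not called when any 1 of the 4 libraries was left out. The 3 that rose were HAND1, TBX3 and NR2F2, a factor of atrial and venous cells.

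Other core factors of the heart were not called. TBX5 was at 1.87 and 2.16 against 3.61 and 4.36 FPKM, which is toward higher levels and just short of the fold limit (log2 fold change 0.94, adjusted p = 0.010); without replicate 2 of IWP2 it was called. HAND2, TBX20 and GATA5 had log2 fold changes of -0.42, -0.30 and -0.08. The sum of the 8 early heart markers was 1255 and 1054 FPKM with IWP2 and 1232 and 1293 with NaHCO3, since HAND1 was higher and MYL7 lower.

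The 7 sarcomere genes that fell did so by 1.04 (NEBL) to 1.95 (UNC45B) on the log2 scale. MYH6 (chr14:23851199-23877486, GRCh37), the alpha myosin heavy chain, was at 55.4 and 56.0 FPKM with IWP2 and at 26.5 and 27.2 with NaHCO3 (log2 fold change -1.10, SE 0.23, adjusted p = 0.0025). UNC45B, the chaperone that folds muscle myosin, was at 30.5 and 32.6 against 9.01 and 7.80 FPKM, a fall of 1.95. LDB3 and MYOZ2, proteins of the Z-disc, fell by 1.94 and 1.72, and ACTA1, whose promoter is shown above, by 1.72 from 1.69 and 2.39 FPKM. NEBL, at 58.4 and 62.6 against 31.3 and 29.3, and ACTN2, at 23.5 and 24.6 against 11.3 and 12.1, were near the fold limit. Without replicate 1 of IWP2 with NaHCO3 the count of called sarcomere genes was 4 in place of 7, with ACTA1, MYOZ2 and ACTN2 no longer called. ACTA1 was also not called without replicate 2 of either group.

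Of the sarcomere genes that were not called, MYL7 and TNNT2 stood just short of the fold limit. MYL7, the atrial light chain, was at 747 and 597 FPKM against 365 and 388 (log2 fold change -0.88, adjusted p = 0.024). TNNT2, cardiac troponin T, was at 60.8 and 51.8 against 32.4 and 32.3 (log2 fold change -0.84, SE 0.12, adjusted p = 6.3e-05). In both genes the groups did not overlap, and MYL7 passed the fold limit without replicate 2 of IWP2. By adjusted p alone 13 of the 18 were lower and none higher. ACTC1, the cardiac actin, and TNNC1 had log2 fold changes of -0.36 and -0.29, with adjusted p of 0.30 and 0.32. MYBPC3 was at 1.40 and 1.63 against 1.84 and 2.56 FPKM.

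Genes for calcium handling and excitation fell in 5 of 13 tested cases and rose in 1. PLN, the brake on the calcium pump of heart muscle, was at 6.30 and 5.03 FPKM against 0.88 and 0.74 (log2 fold change -2.84, SE 0.26, adjusted p = 1.1e-05). PLN entered the test only through the IWP2 libraries and so could only lie lower with NaHCO3. SLC8A1 (the sodium-calcium exchanger), JPH2 and RYR2 (the calcium release channel) fell by 1.40, 1.31 and 1.17, and RYR2 missed the fold limit without replicate 2 of IWP2. KCNJ3, a potassium channel of atrial cells, rose by 1.40. HCN4, a pacemaker channel, was at 5.80 and 5.71 against 6.04 and 6.26 FPKM. NPPB, the B-type natriuretic peptide, and HSPB7, a small heat shock protein of muscle, fell by 1.65 and 1.24 on the log2 scale.

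Of the primitive streak genes, 11 passed the filter, 3 fell and 1 rose, with a median of -0.64. GSC, a factor of the anterior primitive streak, was at 2.34 and 2.19 FPKM against 0.18 and 0.16 (log2 fold change -3.71, SE 0.39, adjusted p = 1.9e-06). FGF8 was at 11.7 and 8.75 against 3.33 and 2.64 FPKM, and MESP1, the first factor of cardiac mesoderm, at 1.35 and 1.26 against 0.62 and 0.45. These are the 3 that fell, and FOXA2 is the 1 that rose. GSC and MESP1 entered the test only through the IWP2 libraries and so could only lie lower with NaHCO3. Without replicate 2 of IWP2 the count lower was 5, MIXL1 among them, and MESP1 was not called without replicate 1 of IWP2 or replicate 2 of IWP2 with NaHCO3. EOMES, at 1.68 and 2.04 against 2.66 and 2.31 FPKM, was not called. T was at 0.23 FPKM or lower in every library.

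L1TD1, an RNA-binding protein of stem cells, fell from 51.3 and 53.9 to 11.9 and 11.1 FPKM (log2 fold change -2.24, SE 0.13, adjusted p = 2.1e-09). POU5F1, the pluripotency factor OCT4, was at 6.87 and 7.11 against 4.09 and 2.80 FPKM (log2 fold change -1.06) and was not called without replicate 2 of IWP2 with NaHCO3 (adjusted p = 0.12). NANOG was at 0.02 FPKM or lower in all 4 libraries. In the presomitic list DLL3, FOXC1 and UNCX fell by 2.34, 1.56 and 1.72 on the log2 scale and LFNG rose by 2.01, of 6 tested.

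Feedback targets of WNT/beta-catenin signalling gave 1 rise and 1 fall among 14 tested, with a median of 0.02. AXIN2, the most general of these targets, was at 4.02 and 4.30 FPKM with IWP2 and 4.46 and 4.47 with NaHCO3 (log2 fold change 0.06, SE 0.11, adjusted p = 0.81). LEF1 had a log2 fold change of -0.31 and DKK1 of 0.24, neither called. SP8 rose from 3.40 and 3.25 to 10.4 and 10.5 FPKM, and LGR5 fell from 15.2 and 16.9 to 7.79 and 7.44. WNT11, a WNT ligand of the developing heart, was at 5.69 and 4.93 against 15.5 and 19.1 FPKM and rose by 1.66, the 1 called of 7 tested ligand and processing genes.

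FGF genes went both ways. FGF10, a ligand of the second heart field, fell from 25.5 and 30.0 to 7.41 and 8.18 FPKM (log2 fold change -1.88, SE 0.19, adjusted p = 1.6e-06). FGF19, a ligand of gut and liver, rose from 0.09 and 0.18 to 2.51 and 3.10 FPKM, with 4 and 8 counts in the IWP2 libraries. It entered the test only through the NaHCO3 libraries. Of the phosphatases that switch off ERK kinases, DUSP4 rose by 1.16 while DUSP6 fell by 1.02 from 91.9 and 96.0 FPKM. DUSP6 was near the fold limit and lost its call under 6 of 14 alternatives, down to -0.87 without replicate 2 of IWP2 with NaHCO3. BMP5 fell from 153 and 157 to 63.0 and 64.5 FPKM and BMP6 rose by 1.65. In the NODAL list FST rose by 1.66, and GDF3 fell from 4.75 and 6.55 to 0.74 and 0.41 FPKM. GDF3 entered the test only through the IWP2 libraries. The NOTCH ligand JAG1 was at 37.7 and 42.0 against 12.7 and 11.5 FPKM, a fall of 1.77.

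In retinoic acid metabolism, the degrading enzyme CYP26A1 was at 0.70 and 0.15 FPKM with IWP2 and at 5.01 and 5.40 with NaHCO3 (log2 fold change 3.55, SE 0.36, adjusted p = 1.3e-06). ALDH1A1, an enzyme of its synthesis, was at 0.35 and 0.34 against 4.01 and 4.30 FPKM and rose by 3.53. The receptor RARB fell from 6.62 and 6.57 to 1.48 and 1.07 FPKM, a log2 fold change of -2.41, and the carrier CRABP1 fell by 1.52. Of 12 tested members, 2 rose and 2 fell. Both that rose, CYP26A1 and ALDH1A1, entered the test only through the NaHCO3 libraries and so could only lie higher there.

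Proton and bicarbonate transporters, carbonic anhydrases and acid sensors were each called at a share above the 5.67% of all genes, on small lists. Of 23 tested genes of the V-ATPase (a proton pump) and the lysosome, 0 were called. Of 15 tested proton and bicarbonate transporters 3 rose, none fell, and the median was 0.06. SLC4A8, a sodium-driven chloride-bicarbonate exchanger, was at 2.52 and 3.76 FPKM against 7.19 and 8.95 (log2 fold change 1.32, SE 0.22, adjusted p = 0.00026). The sodium-proton exchangers of internal membranes SLC9A7 and SLC9A9 rose by 1.23 and 2.94, SLC9A9 from 0.12 and 0.16 to 1.14 and 1.05 FPKM. SLC9A9 entered the test only through the NaHCO3 libraries. SLC4A2, a chloride-bicarbonate exchanger of the plasma membrane, was at 22.5 and 19.2 against 19.2 and 21.5 FPKM and was not called. CA4, a membrane-bound carbonic anhydrase, rose from 0.63 and 1.14 to 4.49 and 4.33 FPKM (log2 fold change 2.28, SE 0.27, adjusted p = 8.9e-06), the 1 called of 5. CA2, the cytosolic form, was at 21.0 and 21.6 against 18.4 and 17.4 FPKM. Of the acid-sensing channels ASIC4 fell by 1.85, and ASIC2 rose by 1.03 but was not called without replicate 2 of IWP2 or without either NaHCO3 library.

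None of 19 glycolysis enzymes was called by edgeR, DESeq2 or limma, with 7 at an unadjusted p under 0.05 (36.8%, against 25.9% of all genes). LDHA was at 22.4 and 21.4 against 28.6 and 26.3 FPKM (log2 fold change 0.28, adjusted p = 0.14) and HK2 at 7.6 and 7.82 against 9.52 and 9.06. SLC16A3, the lactate exporter, was at 7.65 and 6.86 against 12.1 and 12.5 FPKM and was below the fold limit at 0.72. ATF3, a stress-induced factor, rose from 1.85 and 1.99 to 8.02 and 8.74 FPKM (log2 fold change 2.08, SE 0.13, adjusted p = 9.4e-09), and VLDLR fell by 2.17, while 1 of 18 tested genes of the integrated stress response rose and 2 fell. LOX, the collagen crosslinker, was the 1 called hypoxia gene of 17, at 0.52 and 0.33 against 3.07 and 3.43 FPKM. It entered the test only through the NaHCO3 libraries. MT2A, a metallothionein, rose by 2.26. H19, an imprinted noncoding RNA, was at 1449 and 1313 FPKM against 3511 and 3315, and its call was lost without replicate 2 of IWP2 (adjusted p = 0.053). PLAGL1, an imprinted zinc finger factor, rose from 1.82 and 1.96 to 8.78 and 9.14.

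Of genes in no list, the largest rise was that of SLN (chr11:107578104-107590419, GRCh37), sarcolipin, a regulator of the calcium pump in atrial and skeletal muscle. It had 1 and 0 counts in the IWP2 libraries and 103 and 123 in the NaHCO3 libraries, a ratio of 200 with an exact interval of 35.5 to 7920 that covers counting error only. ALOX15, a lipoxygenase, was at 0.68 and 0.60 FPKM against 13.5 and 13.8 (log2 fold change 4.36, SE 0.27, adjusted p = 1.3e-08). AQP1, a water channel, was at 1.36 and 1.02 against 16.7 and 21.0 FPKM, a rise of 3.94. FOSL2, an AP-1 factor, and ITGA11, a collagen receptor, rose by 3.26 and 3.33, FOSL2 to 26.2 and 28.2 FPKM. PITX3 and VAT1L rose by 3.66 and 3.44, and the unnamed gene AC105227.1 from 2.92 and 2.00 to 55.9 and 66.4 FPKM. MIR3131 and AC078899.5 are also among the 15 largest rises, but each had 0 and 1 counts with IWP2 and was not called without either IWP2 library. Like SLN and ALOX15, they entered the test only through the NaHCO3 libraries.

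Among the 15 largest falls, those in no list began with SLC16A12, a transporter of the monocarboxylate family, which fell by 3.46, and SYNDIG1L, which fell by 3.43. SYNDIG1L was under 1 FPKM in both NaHCO3 libraries and so entered the test only through the IWP2 libraries. CALB2, the calcium buffer calretinin, was at 39.5 and 36.2 FPKM with IWP2 and 4.90 and 3.82 with NaHCO3 (log2 fold change -3.16, SE 0.21, adjusted p = 1.2e-08). BRINP2 fell from 23.8 and 22.8 to 2.86 and 2.09 FPKM, and NTRK2, a neurotrophin receptor, from 13.96 and 19.2 to 3.55 and 3.14. Of 6 tested neural and anterior ectoderm genes none was called by edgeR, DESeq2 or limma, with 4 at an unadjusted p under 0.05, against 25.9% of all genes. The pepsinogen genes PGA4 and PGA5 fell by 2.74 and 2.64; they are near-identical copies, so their separate values are uncertain. ELTD1, an adhesion receptor of heart and vessels, fell from 9.71 and 10.1 to 2.20 and 1.99 FPKM.

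NaHCO3 was also given without IWP2, and that effect (NaHCO3 minus control, day 5) shares no library with the one above. It had 319 genes higher (2.26%) and 474 lower (3.36%) among the same 14098. Of the 471 genes higher with IWP2, 155 (32.9%) were also higher without it, which is 48.6% of the 319, and 11 were lower. Of the 328 lower genes, 207 (63.1%) were also lower without IWP2, 43.7% of the 474, and 5 were higher. The difference of the 2 effects was tested in the same fit: 425 genes (3.01%) had a higher effect with IWP2 and 111 (0.787%) a lower one. Of the 471 genes that rose, 205 were among the 425 and 9 among the 111. Of the 328 that fell, 36 were among the 425 and 23 among the 111. The difference includes the effect with IWP2, so these overlaps are not independent of the calls.

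Liver, endoderm and epithelial lists had many members in that difference. HNF4A was not called without IWP2, at 27.4 ± 2.18 FPKM in the control and 27.7 ± 0.537 with NaHCO3 (SD, n = 2 each), and the difference of the effects was 2.33 (SE 0.18, adjusted p = 1.9e-07, edgeR). The level with IWP2 and NaHCO3, 16.1, thus lay between that of IWP2 alone, 3.01 ± 0.311, and that of the control. APOA1 followed the same order, with 27.3 ± 2.81 FPKM for IWP2, 157 ± 2.93 with NaHCO3 added and 198 ± 26.1 in the control. In all, 10 of 12 endoderm factors, 10 of 13 liver-type genes and 10 of 18 epithelial genes had a higher effect with IWP2, and none a lower one. These differences also hold falls without IWP2. There the endoderm list had a median of -0.68, with 3 members lower and 0 higher. The epithelial list had a median of -0.43, with 1 lower and 0 higher, and the liver-type list one of 0.46, with 2 higher and 0 lower. EPCAM shows the epithelial case: its log2 fold change was 1.37 with IWP2 and -0.35 without, and the difference was 1.72 (SE 0.24, adjusted p = 0.00014).

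Of the 14 matrix genes tested, 6 rose with IWP2 and 7 without, and 2 of the 14 had a lower effect with IWP2. LUM had a log2 fold change of 2.49 with IWP2 and 2.33 without, a difference of 0.16 (SE 0.37, adjusted p = 0.94). DCN and POSTN rose more without IWP2, by 6.94 and 6.18 on the log2 scale, and the differences were -3.13 and -3.14. Without replicate 1 of IWP2 the POSTN difference was not called (adjusted p = 0.074).

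Of the 18 sarcomere genes, 7 fell with IWP2, while 11 fell and 1 rose without it, and the effect with IWP2 was called higher for 5 and lower for 2 of them. SMYD1 was at 10.2 ± 0.615 FPKM in the control and 0.005 ± 0.00707 with NaHCO3 alone, against 38.8 ± 3.05 and 6.69 ± 1.30 with IWP2 (SD, n = 2 each), and the difference of the effects was 7.74 (SE 0.69, adjusted p = 1.7e-06). MYH6 was at 3.16 ± 0.509 and 0.095 ± 0.0354 FPKM without IWP2 and at 55.7 ± 0.375 and 26.8 ± 0.438 with it, a difference of 3.88 (SE 0.48, adjusted p = 3.5e-05). On the log2 scale the fall of SMYD1 and MYH6 under NaHCO3 was smaller with IWP2 present, while in FPKM it was larger. Both genes were near 0 FPKM with NaHCO3 alone, so the size of these differences is not well fixed. NKX2-5 had a log2 fold change of -1.82 with IWP2 and -1.55 without, a difference of -0.28 (SE 0.69, adjusted p = 0.94). WT1 rose with IWP2 and fell by 3.77 without it, a difference of 6.44 (SE 0.80, adjusted p = 6.7e-05). RSPO2, a secreted WNT enhancer, went the other way: it fell from 46.9 and 43.2 to 17.6 and 21.6 FPKM with IWP2 and rose by 3.35 without.

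**Figure D4:**
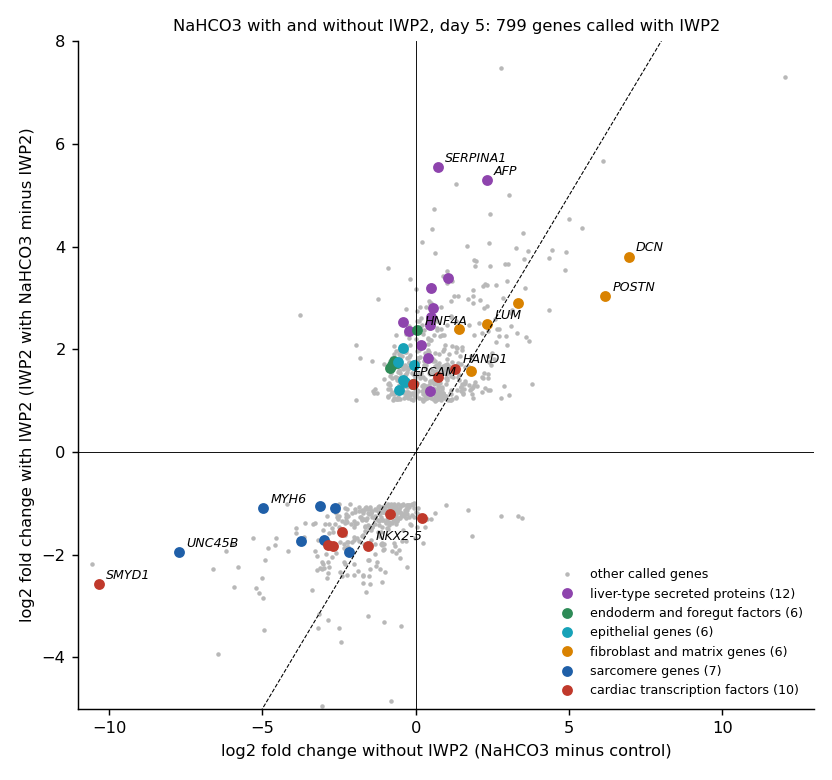
For the 799 genes called with IWP2, the horizontal axis is the log2 fold change of NaHCO3 without IWP2 (NaHCO3 minus control) and the vertical axis that with IWP2, both on day 5; colours mark called members of 6 lists and the dashed line is equality. AFP and FGB apart, the called liver-type, endoderm and epithelial genes lie between -1 and 1 on the horizontal axis and above 1 on the vertical one, while SMYD1 and UNC45B lie far left of the dashed line.

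On day 3 the same pair of treatments gave another picture. There, 261 genes were higher (1.85%) and 107 lower (0.759%) with NaHCO3 added, and of the 471 genes higher on day 5, 45 (9.55%) were higher on day 3, which is 17.2% of the 261. Of the 328 lower genes, 23 (7.01%) were lower on day 3, or 21.5% of the 107, and 36 were higher. In the test of day 5 against day 3, 359 genes (2.55%) had a higher effect on day 5 and 432 (3.06%) a lower one, and 183 of the 328 fallen genes were among the latter. That test includes the day 5 effect, so the overlap is not independent of the calls.

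In the test of the days 7 of 19 cardiac factors, 6 of 18 sarcomere genes and 4 of 9 HOX genes had a lower effect on day 5. MYOCD had a log2 fold change of 3.47 on day 3 and -1.82 on day 5, a difference of -5.28 (SE 0.37, adjusted p = 5.9e-08). MEF2C was at 0.07 ± 0.0283 FPKM with IWP2 and 0.29 ± 0.0566 with NaHCO3 on day 3 (SD, n = 2 each), a rise of 2.03, before the fall of 1.84 on day 5, and the difference was -3.87 (SE 0.39, adjusted p = 2.3e-06). Both day 3 means of MEF2C were far under 1 FPKM, so the size of its rise and of its difference is not well fixed. TNNT2 had log2 fold changes of 2.01 and -0.84 on the 2 days and a difference of -2.85 (SE 0.51, adjusted p = 0.00088). ISL1 was not called on day 3, with a log2 fold change of 0.08. CYP26A1 moved in the opposite sense: it fell by 2.43 on day 3, from a group mean of 191 to 35.9 FPKM, and rose on day 5, when its levels were near 5 FPKM or lower. LDHA, not called on day 5, had risen by 1.66 on day 3 (adjusted p = 8.2e-08), and the difference was -1.38 (SE 0.17, adjusted p = 1.8e-05).

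Levels on days 7 and 11 come from a separate table that was not fitted with day 5, so they are given without a test. MYH6 was at 1552 ± 119 FPKM with IWP2 and 79.3 ± 6.63 with NaHCO3 added on day 7 and at 729 ± 62.5 and 12.9 ± 0.870 on day 11 (SD, n = 2 each). On those days the gap was far wider than the 55.7 against 26.8 of day 5. NKX2-5 was at 89.8 ± 5.09 against 7.50 ± 1.18 FPKM on day 7. LUM was at 47.0 ± 18.8 against 523 ± 9.21 on day 7 and at 52.9 ± 7.38 against 966 ± 22.2 on day 11. APOA1 was at 25.3 ± 0.410 and 289 ± 29.8 FPKM on day 11. HNF4A, however, went down in both groups, to 0.790 ± 0.0849 and 1.28 ± 0.127 FPKM on day 11. EPCAM was lower with NaHCO3 added on day 7, at 18.9 ± 0.488 with IWP2 and 16.7 ± 0.247 with NaHCO3, the opposite order to day 5.

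**Figure D5:**
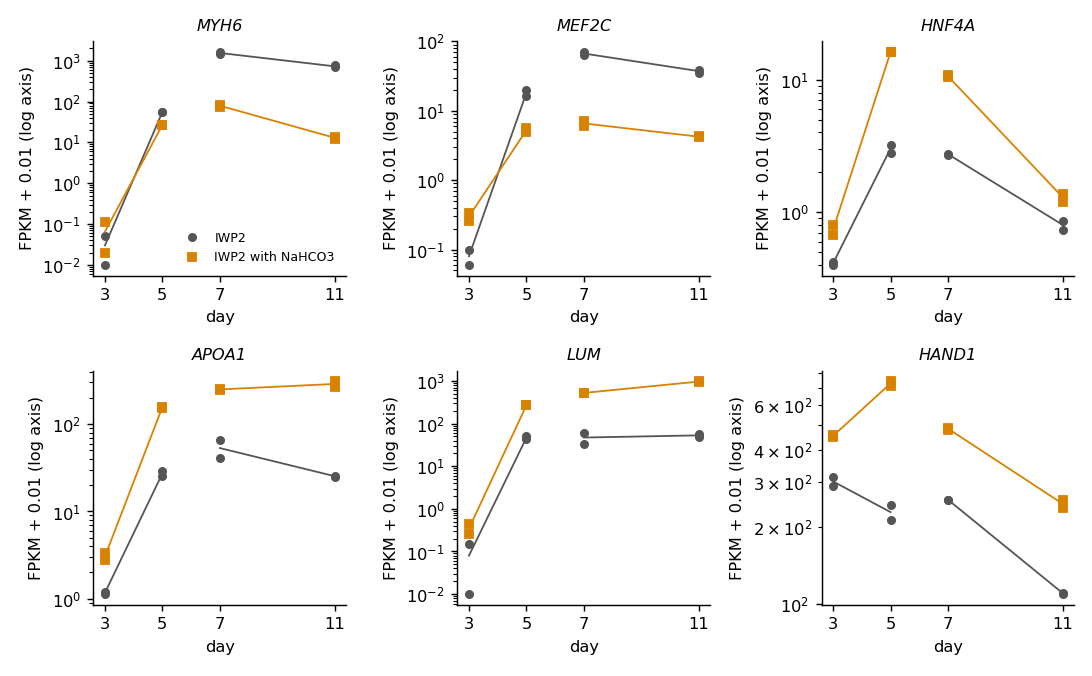
FPKM + 0.01 on a log axis against the day for 6 genes; circles are IWP2 libraries, squares IWP2 with NaHCO3 libraries, and lines join group means within each of the 2 separately made tables (days 3 and 5, days 7 and 11). MYH6 and MEF2C lie lower with NaHCO3 from day 5 on, and HNF4A, APOA1, LUM and HAND1 lie higher on all 4 days.

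The third IWP2 group, with 2-DG beside NaHCO3, stood at other levels on day 5. MYH6 was at 204 ± 27.8 FPKM there, against 26.8 ± 0.438 without 2-DG. HNF4A was at 1.89 ± 0.375, LUM at 10.5 ± 2.96 and TEK at 1.92 ± 0.0919 FPKM (SD, n = 2 each), all below the levels with IWP2 and NaHCO3. With HCl and no IWP2, liver-type genes were low on day 5, APOA1 at 1.92 ± 0.0566 FPKM and HNF4A at 0.450 ± 0.0141. These levels are given for context and were not tested against the 4 libraries compared.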

How the data were processed

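Bulk RNA of H1 cells was sequenced in 50 libraries. Per the labels' protocols, RNA was extracted with RNAiso Plus and 1 µg of total RNA per library went into the VAHTS Universal V8 kit. The tools cutadapt 1.9.1, HISAT2 2.0.1 and HTSeq 0.6.1 and the build GRCh37 are named in the submitters' processing notes, without the step or settings of each; strand-specific counting is not given in the sources used here. The authors deposited raw read counts and FPKM per gene and library, days 3 and 5 in one table and the other days in another.

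A gene was kept if 2 or more of the 4 libraries compared gave it 1 FPKM or above. Their counts in the 24 libraries of days 3 and 5 were scaled by TMM, with library sizes taken over all genes, and fitted in edgeR 4.0.16 (R 4.3.3) with 1 mean for each of 12 groups and a robust quasi-likelihood model. F tests compared group means or differences of effects, adjusted by Benjamini-Hochberg over the 14098 genes; a call needs an adjusted p under 0.05 and a log2 change no smaller than 1 in either direction. The SE is the log2 fold change over the square root of F. Where a group had 1 to 3 counts in all, the ratio of library-scaled counts is given with an exact 95% interval that covers counting error only. FPKM are the authors' values and were used for levels, the filter and the limma alternatives. The common biological coefficient of variation was 0.116. Replicates of a group were not repeats of 1 library: 40.4% and 24.4% of genes differed beyond sampling noise in the 2 groups compared.

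Named genes are the 15 largest rises and the 15 largest falls called (mean of at least 5 FPKM in the higher group, groups not overlapping), up to 6 called members of each of 47 lists, a panel of 41 genes, and the 6 largest called differences of effects each way; other list members are named beside them as examples chosen after their values were seen. A few genes that the rule names are not reported here. The members and lists were chosen with earlier results of these data known. Promoter letters come from the RefSeq table on GRCh38.p14 and were matched by symbol; gene positions are those of the deposited table on GRCh37. Alternatives were DESeq2 1.42.0, limma 3.58.1, library totals without TMM, other filters, other sets of libraries, a replicate block and leaving out each library. The fit was tested on simulated data before use.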

Additional observations from a re-analysis of the deposited data

Results flagged for a closer look

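The effect of NaHCO3 differed between settings by a test of the difference of effects in the fit of all 24 libraries (edgeR's quasi-likelihood test with Benjamini-Hochberg adjustment). Set against NaHCO3 without IWP2 on day 5, the effect with IWP2 was higher for 425 genes and lower for 111. Set against day 3, the effect on day 5 was higher for 359 genes and lower for 432.

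The largest called differences, among genes reaching 5 FPKM in 1 of the 4 groups, are given as log2 values. With IWP2 against without, the effect was higher for ATOH1 (8.37), SMYD1 (7.74), WT1 (6.44), UNC45B (5.78), DNAJC5G (4.35) and NKX2-6 (4.26). ATOH1, best known as a factor of sensory hair cells and cerebellar neurons, was at 32.3 and 32.5 FPKM with IWP2, at 6.80 and 7.86 with NaHCO3 added and at 0 with NaHCO3 alone, so that its difference depends on a group without counts. SMYD1 and UNC45B are likewise near 0 with NaHCO3 alone. The effect was lower for RERG (-5.28), GFRA3 (-4.75), RSPO2 (-4.59), RPRM (-4.04), POSTN (-3.14) and DCN (-3.13). RPRM, GFRA3 and RSPO2 fell with IWP2 and rose without it, by 2.79, 3.48 and 3.35 on the log2 scale.

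On day 5 against day 3 the effect was higher for AC105227.1 (12.15), SLN (10.54), ALOX15 (8.82), LOX (6.00), CYP26A1 (5.98) and PITX3 (5.46). It was lower for LPPR4 (-9.27), HOXB5 (-6.66), HOXB-AS2 (-6.57), CBLN2 (-6.56), NOS2 (-5.38) and MYOCD (-5.28). AC105227.1, SLN, ALOX15, LPPR4, HOXB5, HOXB-AS2 and CBLN2 had a group mean under 0.1 FPKM on day 3, so the size of these differences is not well fixed. The call for SLN was lost without replicate 1 of IWP2 on day 3, and that for ALOX15 without replicate 2 of the same group (adjusted p = 1 in both). LOX and CYP26A1 fell on day 3, LOX by 3.11 and CYP26A1 by 2.43 on the log2 scale, and rose on day 5. NOS2, nitric oxide synthase, rose by 2.84 on day 3 and fell by 2.54 on day 5.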

How the results depend on the processing

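Of the 130 named genes called in the comparison of day 5, none reversed under any alternative, and 0 to 2 lost their call with the day 5 libraries alone, the 4 libraries alone, without the 2-DG libraries of day 3, DESeq2, library totals, no filter, a filter over the 24 libraries, or the replicate block. With limma on log2(FPKM + 1), a scale that shrinks the folds of low genes, 21 lost it, and on log2(FPKM + 0.1) 5 did. Leaving out 1 library removed 7 to 10. Counts that moved by over 1.5 times were as follows. With no filter, 808 genes were higher on day 5, 736 and 190 had a higher and a lower effect with than without IWP2, and 657 a higher effect on day 5 than on day 3. With limma on log2(FPKM + 1), 309 were higher and 167 lower on day 5, and 69 had a lower effect with IWP2. With no minimum fold 1084 were higher and 1019 lower. HOXB5 reversed in the difference of the days, to 0.0536 with limma on log2(FPKM + 1) (adjusted p = 0.93, edgeR -6.66); the cause was not tested. Leaving out each library in turn gave 425 to 444 genes higher and 270 to 292 lower on day 5, 332 to 398 and 79 to 100 for the difference with and without IWP2, and 317 to 343 and 359 to 408 for that of the days. Without both 2-DG libraries of day 3 the counts rose to 506, 361, 518, 135, 440 and 496. These 2 libraries were the least alike of the 12 groups, correlating at 0.962 on the log2 scale. Between them 74.1% of genes differed beyond sampling noise, and they are part of the spread estimated in the main fit. The day 5 libraries alone cannot give the difference between days, and that alternative was not run for it.

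Replicate numbers are shared between groups, but the deviations of same-numbered libraries of the 2 groups correlated at 0.05, so the numbers are not taken to pair cultures. With the replicate block 796 genes were called, of which 789 were among the 799. With 2 libraries a group and a minimum fold, smaller changes can be missed. In the simulated data, with changes set only in genes that were not low in counts, 18 of 50 genes with a 2-fold change were called. That change is the fold limit itself. At a 3-fold change 49 of 50 were called, and 2 unchanged genes were called.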
